A study of Homo sapiens with 15 samples.

Results

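MUC16, MUC1, MUC4 and MUC20 encode membrane mucins, and they were examined here as 4 of the 60649 genes listed in each of 15 RNA-seq libraries of HSC-5 cells. Their entries were found by gene symbol. MUC16 was chosen by its measured values, a near loss in the libraries of PRMT5 knockout cells, so its levels there are a description and carry no test. MUC1, MUC4 and MUC20 were taken for their family, though with earlier results of these data known. Of 19 listed genes with a mucin symbol, these 4 are among those that encode proteins held in the cell membrane.

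Membrane mucins are large glycoproteins with a membrane anchor and a long extracellular part rich in serine and threonine. Enzymes of the Golgi attach O-linked sugars to these residues, and the sugar-covered rods form a layer on the surface of wet epithelia that hydrates the cell and limits contact with microbes and other cells. MUC16 carries the CA125 antigen, is best known from ocular and airway epithelium and from ovarian cancer, and is not a usual product of dry skin. MUC1 is made by many glandular and some stratified epithelia, MUC4 binds the receptor ERBB2, and MUC20 is known as a partner of the receptor MET.

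HSC-5 is an established human line from a squamous cell carcinoma of the skin. The cells carried the negative control (sgNeg, which the study describes as an empty vector, genotype WT), either of 2 guides against PRMT5 (sgPRMT5#1 and sgPRMT5#2, genotype PRMT5 Knockout) or either of 2 guides against WDR77 (sgWDR77#1 and sgWDR77#2, genotype WDR77 Knockout), with 3 biological replicates per guide. PRMT5 is the arginine methyltransferase that places symmetric dimethyl marks on histones and splicing proteins, and WDR77 is its constant partner in the methylosome complex. Neomycin was the labelled treatment of all 15 libraries, sgNeg included, so that every condition had the same drug selection. Whether the knockout cells were pools or single clones was not given in the sources used here. PRMT5KO and WDR77KO below stand for the 6 libraries of both guides of a gene, which share a target but differ in guide. Each library held between 5146711 and 6730428 reads on genes, and levels are given as CPM, the reads of a gene per 1e+06 reads on genes after scaling between libraries. The labels call the replicates biological without saying that they were separate cultures, so a p-value measures the spread between libraries as they were made.

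The guide targets were read first as a check of the labels. PRMT5 had counts of 349, 302 and 374 in sgNeg, 216, 211 and 242 in sgPRMT5#1, and 284, 262 and 233 in sgPRMT5#2. Every sgPRMT5 library lay below every sgNeg library, and the difference was -0.57 ± 0.12 on the log2 scale (SE, n = 6 and 3; limma voom, adjusted p = 0.00874). WDR77 had counts of 739, 692 and 657 in sgNeg, 167, 281 and 292 in sgWDR77#1, and 138, 141 and 122 in sgWDR77#2. Its log2 fold change in WDR77KO was -1.86 ± 0.22 (limma voom, adjusted p = 9.00e-05). A guide can disable a gene without removing its RNA, so RNA is only a partial check of a knockout. The study also reported Western blots of HSC-5 cells with each guide, in which depletion of either protein lowered the other as well.

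Markers of squamous keratinocytes were present in all libraries, with summed levels of 1937 to 2914 CPM over 10 genes. SFN was the most abundant of them per length, and TP63 had between 1735 and 2859 counts per library. KRT14, a defining basal keratin, had between 1 and 4 counts, so this defining marker was near 0. In PRMT5KO 1 of the 9 keratinocyte markers tested was called higher (SFN) and 4 lower (KRT5, KRT6A, DSG3 and PKP1). Over all genes tested 8.73% were called higher and 8.30% lower. The SFN log2 fold change in PRMT5KO ran from 0.32 to 0.44 over 17 alternatives. In WDR77KO limma voom called the same 4 genes lower and 0 higher (0 higher also at an unadjusted p under 0.05), where 2.55% of all genes were lower and 0.838% higher. The KRT5 log2 fold change was -2.41 ± 0.47 in PRMT5KO and -3.42 ± 0.27 in WDR77KO (limma voom, adjusted p = 0.00650 and 1.59e-06). These calls held in 17 of 17 alternatives, except that of PKP1 in WDR77KO, which was lost without sgNeg replicate 1 or 3, sgWDR77#1 replicate 2 or 3 or sgWDR77#2 replicate 2 (limma voom, adjusted p = 0.133, 0.208, 0.0795, 0.0684 and 0.0576). The part of these keratinocyte genes in the mucin values was not tested.

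Markers of other cell types were summed in the same way. Leukocyte genes reached at most 0.370 CPM and intestinal or gastric glandular genes at most 0.185 CPM, with CD3E, KRT20, TFF1 and TFF2 at 0 in every library. Fibroblast genes summed to 6.68 to 16.2 CPM, mostly COL1A1, with COL1A2 at 0, and COL1A1 was the 1 tested and not called in either knockout. In PRMT5KO COL1A1 was at -0.52 ± 0.21 on the log2 scale (limma voom, adjusted p = 0.0977), lower at an unadjusted p under 0.05. Endothelial genes summed to 12.7 to 36.1 CPM, mostly CDH5, with KDR at 0, and melanocyte genes to 2.55 to 7.48 CPM, mostly PMEL, with DCT and TYR at 0. In PRMT5KO 1 of 2 endothelial markers tested (VWF) and 1 of 2 melanocyte markers tested (PMEL) were called lower by limma voom, beside 8.30% of all genes, and in WDR77KO 0 of each (0 of each also at an unadjusted p under 0.05). The mesothelial genes, of interest because mesothelium is a known source of MUC16, summed to 14.8 to 28.3 CPM, with CALB2 the most abundant per length. Of these 4 genes UPK3B alone was called in PRMT5KO, with a log2 fold change of -1.41 ± 0.46 (limma voom, adjusted p = 0.0486), beside 8.30% of all genes called lower, and limma voom called 0 in WDR77KO (1 lower at an unadjusted p under 0.05). The VWF call was lost without sgNeg replicate 1 or 2 (limma voom, adjusted p = 0.0840 and 0.0522). The PMEL call held in 9 of 17 alternatives and was lost with no filter or a replicate block and without sgNeg replicate 1 or 2, sgPRMT5#1 replicate 3 or any 1 of the sgPRMT5#2 libraries (limma voom, adjusted p from 0.0504 to 0.143). The UPK3B call held in 7 of 17 and was lost with no filter, a replicate block or upper quartile scaling and without any 1 of the sgNeg or sgPRMT5#2 libraries or sgPRMT5#1 replicate 3 (limma voom, adjusted p from 0.0510 to 0.167). The part of these levels in the mucin values was not tested.

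MUC16 (ENSG00000181143.15) lies on chromosome 19 from base 8848844 to 9010390 of GRCh38, on the minus strand, in the GENCODE 44 annotation. It is the longest of the 4, with 87 exon blocks and 44165 exonic bases, none of them shared with exons of another gene. MUC1 (ENSG00000185499.16) covers only 7093 bases of chromosome 1, from 155185824 to 155192916 on the minus strand, with 2401 exonic bases in 8 blocks, of which 2.00% overlap another annotated gene. MUC4 (ENSG00000145113.22), on chromosome 3 from 195746765 to 195811973 on the minus strand, and MUC20 (ENSG00000176945.17), from 195720884 to 195741123 on the plus strand, are neighbours 5642 bases apart. In MUC20, 27.1% of 6837 exonic bases are also exons of the noncoding gene MUC20-OT1 on the same strand. All 4 proteins hold repeats, and reads that map to several places were not counted.

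The 3 mucins with reads had lower mean levels together in the knockouts, so the 250 bases before their RefSeq transcription starts (GRCh38.p14, minus strand, 5′ to 3′) are shown. Capitals mark motif matches on either strand, which can overlap each other. The GC box was searched as GGGCGG. The TATA box was searched as TATAAA. The E-box known for SNAI and ZEB factors was searched as CACCTG. The core letters of ETS factor sites were searched as AGGAAG. The spaced palindrome of STAT factors was searched as TTCNNNGAA. MUC16 has 2 annotated starts, and the downstream start lies next to the gene end given above.
MUC16 upstream start, chr19:9065752-9066001: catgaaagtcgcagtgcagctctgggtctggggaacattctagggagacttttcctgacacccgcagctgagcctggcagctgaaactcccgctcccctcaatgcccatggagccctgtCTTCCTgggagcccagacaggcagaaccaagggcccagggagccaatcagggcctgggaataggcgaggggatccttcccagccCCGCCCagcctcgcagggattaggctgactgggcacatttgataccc
MUC16 downstream start, chr19:9010410-9010659: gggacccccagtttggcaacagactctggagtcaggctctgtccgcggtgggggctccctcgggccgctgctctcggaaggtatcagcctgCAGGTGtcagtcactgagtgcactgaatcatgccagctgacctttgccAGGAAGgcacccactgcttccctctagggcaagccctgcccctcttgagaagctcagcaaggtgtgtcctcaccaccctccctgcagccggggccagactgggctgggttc
MUC1, chr1:155192916-155193165: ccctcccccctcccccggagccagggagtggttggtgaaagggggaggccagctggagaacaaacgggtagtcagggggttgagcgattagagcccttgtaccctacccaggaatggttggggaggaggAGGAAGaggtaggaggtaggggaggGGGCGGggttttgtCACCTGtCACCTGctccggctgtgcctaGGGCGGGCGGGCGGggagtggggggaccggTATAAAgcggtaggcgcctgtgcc
MUC4, chr3:195811930-195812179: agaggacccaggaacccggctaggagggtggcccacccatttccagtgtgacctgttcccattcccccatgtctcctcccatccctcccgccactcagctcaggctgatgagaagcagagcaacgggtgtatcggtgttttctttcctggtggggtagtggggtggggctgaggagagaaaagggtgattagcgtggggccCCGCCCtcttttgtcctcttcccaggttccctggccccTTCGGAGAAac

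Among 35116 RefSeq windows of 250 bases, 42.6% held the GC box, 10.7% the TATA box, 17.5% the E-box, 28.7% the ETS core and 6.57% the STAT spacing. The MUC1 window had 4 GC box matches, 2 E-box matches, 1 ETS match and a TATA box that starts 24 bases before the transcription start. A second annotated MUC1 start, not shown, has the same numbers of matches, with the TATA box 30 bases before it. The upstream MUC16 window had 1 GC box and 1 ETS match, the downstream MUC16 window had 1 E-box and 1 ETS match, and the MUC4 window had 1 GC box and 1 STAT match that starts 11 bases before the transcription start. No motif was held by all 4 windows. Their G and C content was 60.4% to 66.0%, beside a median of 58.0% over all windows. A match describes letters and does not show that a factor binds.

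MUC16 was counted 26, 55 and 38 times in the 3 sgNeg libraries, which corresponds to 4.40, 9.04 and 6.89 CPM. It was counted 5, 1 and 0 times in sgPRMT5#1 and 1, 2 and 0 times in sgPRMT5#2. All 6 PRMT5KO libraries lay far below the lowest sgNeg library, and 2 of them, replicate 3 of each guide, had no MUC16 read at all. A count of 0 allows up to 3 counts, or 0.458 to 0.578 CPM in a library of this size. In these bulk libraries, fewer cells with MUC16 RNA and less MUC16 RNA per cell cannot be told apart.

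Summed over libraries, MUC16 in PRMT5KO was at 3.63% of its sgNeg level (9 against 119 reads, exact 95% interval 1.62% to 7.12%), or 27.6-fold lower. The guides gave 4.83% (1.74% to 10.8%) for sgPRMT5#1 and 2.42% (0.492% to 7.25%) for sgPRMT5#2, intervals that overlap. These intervals cover counting error only and not the spread between cultures. Without single libraries the fitted values of the guides ran from -5.48 to -3.82 for sgPRMT5#1 (without its replicate 1 and its replicate 3) and from -5.54 to -4.39 for sgPRMT5#2 (without its replicate 2 and its replicate 3). The pooled MUC16 log2 fold change was -4.82 ± 0.59 (SE, n = 6 and 3), given without a test because this contrast chose the gene. Over the 14071 genes of that comparison, 8.30% were called lower and 8.73% higher, and in 7.73% all 6 PRMT5KO libraries lay below all 3 sgNeg libraries. This balance depended on scaling, with 1229 genes higher and 1168 lower here, 781 and 1517 with library totals alone, and 1614 and 1047 with upper quartile scaling.

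In the WDR77 knockouts MUC16 stood at an intermediate level. It was counted 8, 12 and 12 times in sgWDR77#1 and 3, 7 and 12 times in sgWDR77#2. Every one of these 6 libraries lay below the lowest sgNeg library, as was so for 6.23% of the 14073 genes tested. The MUC16 log2 fold change in WDR77KO was -2.04 ± 0.36 (SE, n = 6 and 3, 95% interval -2.80 to -1.27; limma voom, adjusted p = 0.00430), where 2.55% of genes were called lower and 0.838% higher. In summed reads MUC16 stood at 24.3% of its sgNeg level (54 against 119 reads, exact 95% interval 17.3% to 33.8%). The sgNeg libraries are the same as those of the comparison that chose MUC16, so the WDR77KO value is not independent of that choice.

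Each WDR77 guide alone gave a lower MUC16 level. Both guides were set against the same sgNeg libraries that chose MUC16, so neither test is independent of that choice or of the other. For sgWDR77#2 the log2 fold change was -2.38 ± 0.49 (SE, n = 3 and 3; limma voom, adjusted p = 0.0104, with 3.08% of genes called lower), and for sgWDR77#1 it was -1.67 ± 0.40 (limma voom, adjusted p = 0.0479, with 1.67% of genes called lower). The second of these calls was near the threshold. It was lost with upper quartile scaling (limma voom, adjusted p = 0.0505), with library totals alone (0.0569) and without sgNeg replicate 2 (0.126), sgNeg replicate 3 (0.197), sgWDR77#1 replicate 2 (0.127) or sgWDR77#1 replicate 3 (0.0729), and it held in 7 of 13 alternatives, over which the adjusted p ranged from 0.0115 to 0.197. The sgWDR77#2 call held in 12 of 13 (adjusted p from 0.00129 to 0.0579 by limma voom) and was lost without sgWDR77#2 replicate 2. Between the WDR77 guides MUC16 differed by -0.68 ± 0.50 on the log2 scale (sgWDR77#2 against sgWDR77#1, 95% interval -1.76 to 0.40; limma voom, adjusted p = 0.603), in a comparison that called 0.121% of genes in either direction.

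The order of mean MUC16 levels was sgNeg (6.78 ± 2.32 CPM, SD, n = 3), sgWDR77#1 (1.96 ± 0.420), sgWDR77#2 (1.32 ± 0.795), sgPRMT5#1 (0.311 ± 0.401) and sgPRMT5#2 (0.165 ± 0.170). The WDR77 guides overlapped in their libraries, and so did the PRMT5 guides. Between the knockouts, 5 of the 6 PRMT5KO libraries lay below the lowest WDR77KO library, and sgPRMT5#1 replicate 1 at 0.764 CPM lay above sgWDR77#2 replicate 1 at 0.578 CPM. Summed MUC16 reads in PRMT5KO were 14.9% of those in WDR77KO (exact 95% interval 6.48% to 30.5%), a description without a test.

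**Figure D1:**
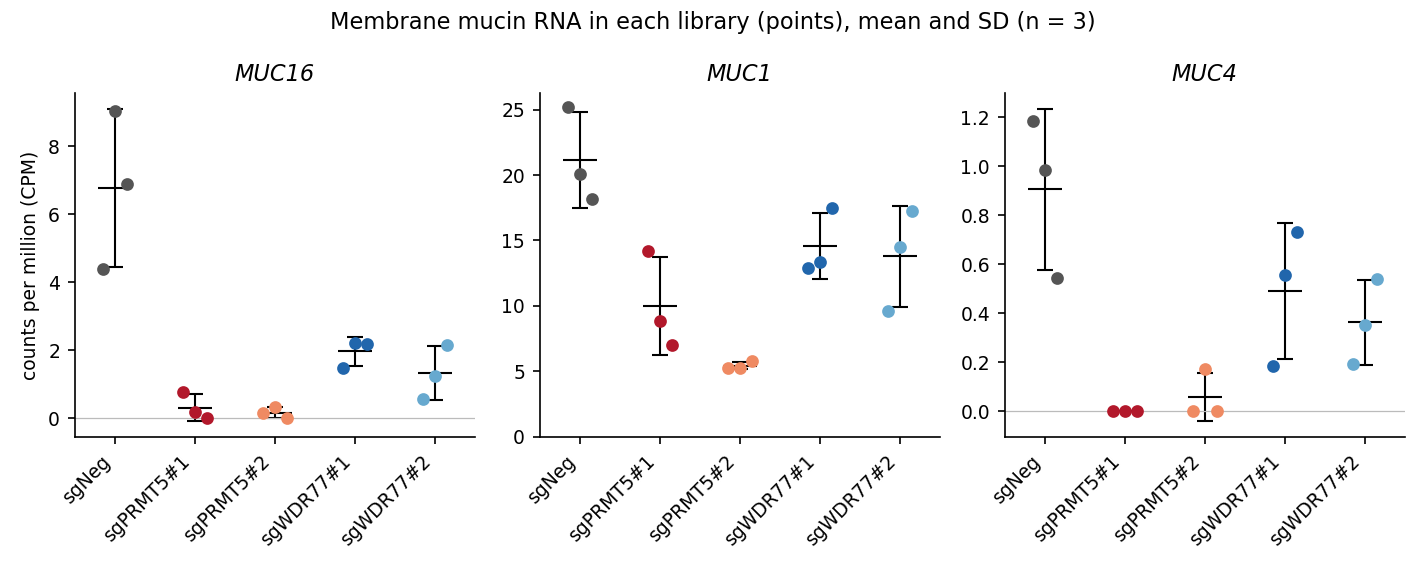
CPM of MUC16, MUC1 and MUC4 (vertical axes, each with its own scale) in every library of the 5 conditions; points are libraries and bars the mean and SD of 3 replicates. MUC16 ran from 4.40 to 9.04 CPM in sgNeg and from 0 to 0.764 CPM in the sgPRMT5 libraries, with the sgWDR77 libraries between 0.578 and 2.22 CPM.

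MUC1 was the mucin with the most reads. Its counts were 149, 122 and 100 in sgNeg, 93, 52 and 41 in sgPRMT5#1, and 34, 31 and 34 in sgPRMT5#2. All 6 PRMT5KO libraries lay below all 3 sgNeg libraries, as was so for 7.73% of the 14071 genes tested. The sgPRMT5#2 libraries lay close together. The MUC1 log2 fold change in PRMT5KO was -1.53 ± 0.23 (SE, n = 6 and 3, 95% interval -2.03 to -1.03; limma voom, adjusted p = 0.00216). MUC1 stood at 36.8% of its sgNeg level (285 against 371 reads, exact 95% interval 31.5% to 43.1%), and its difference in fold from MUC16 was not tested. The call held in all 17 alternatives, over which the limma voom adjusted p ranged from 1.21e-06 to 0.0201.

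MUC1 fell with each PRMT5 guide, and more with the second. The log2 fold change was -1.12 ± 0.21 for sgPRMT5#1 (limma voom, adjusted p = 0.00546), where 2.24% of genes were called lower, and -1.94 ± 0.20 for sgPRMT5#2 (limma voom, adjusted p = 3.76e-07), where 19.3% were. Directly compared, MUC1 in sgPRMT5#2 was lower than in sgPRMT5#1 by -0.83 ± 0.25 on the log2 scale (n = 3 and 3; limma voom, adjusted p = 0.0230), where 9.31% of genes were called lower. All 3 sgPRMT5#2 libraries lay below all 3 sgPRMT5#1 libraries. The share of all genes that did so is not available here, so this separation is a description only. The difference between the guides was -0.54 with a limma voom adjusted p of 0.156 without sgPRMT5#1 replicate 1, whose 14.2 CPM of MUC1 stood above 8.83 and 7.02 CPM in its replicates. It was also no longer past the threshold without sgPRMT5#2 replicate 1, 2 or 3 (limma voom, adjusted p = 0.0958, 0.0710 and 0.0617) and with all 15 libraries in one fit (0.0829), and it held in 8 of 13 alternatives (adjusted p from 0.000249 to 0.156).

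In the WDR77 knockouts MUC1 had counts of 70, 72 and 96 for sgWDR77#1 and 50, 82 and 96 for sgWDR77#2. Every one of these libraries lay below the lowest sgNeg library in CPM, at 9.63 to 17.5 against 18.1 to 25.2. This was so for 6.23% of the 14073 genes tested, and the MUC1 test did not pass the threshold. The MUC1 log2 fold change was -0.58 ± 0.18 (SE, n = 6 and 3, 95% interval -0.97 to -0.20; limma voom, adjusted p = 0.1002), and no alternative brought it past the threshold (adjusted p from 0.0752 to 0.411 by limma voom). By guide the values were -0.50 ± 0.19 for sgWDR77#1 and -0.64 ± 0.20 for sgWDR77#2 (limma voom, adjusted p = 0.186 and 0.0868). A failed threshold does not show that MUC1 was unaltered in these cells.

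The knockouts were also set against each other without the sgNeg libraries. MUC1 was lower in PRMT5KO than in WDR77KO, with a log2 fold change of -0.94 ± 0.22 (SE, n = 6 and 6; limma voom, adjusted p = 0.0112), in a comparison where 6.01% of 14015 genes were called lower. In this comparison 5 of 6 PRMT5KO libraries lay below all WDR77KO libraries. The call held in all 20 alternatives (limma voom, adjusted p from 0.00138 to 0.0363). The order of mean MUC1 levels was sgNeg (21.1 ± 3.67 CPM, SD, n = 3), sgWDR77#1 (14.6 ± 2.54), sgWDR77#2 (13.8 ± 3.87), sgPRMT5#1 (10.02 ± 3.74) and sgPRMT5#2 (5.44 ± 0.275). The WDR77 guides differed by less than their spread (log2 difference -0.11 ± 0.23; limma voom, adjusted p = 0.870), and the sgPRMT5#1 libraries overlapped those of both WDR77 guides.

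MUC4 was barely detected. It had 7, 6 and 3 reads in sgNeg, 0, 0 and 0 in sgPRMT5#1, and 0, 1 and 0 in sgPRMT5#2. Only sgPRMT5#2 replicate 2 of the PRMT5KO libraries held a MUC4 read. In PRMT5KO the gene was under the mean of 3 normalized counts that the fit required, so 2 of the 4 mucins, MUC16 and MUC1, entered that comparison. The mean MUC4 level differed by -0.877 CPM (PRMT5KO minus sgNeg). An exact permutation test was chosen after the libraries were seen to separate, so its p, the smallest that 6 against 3 libraries allow, restates that separation (84 arrangements, two-sided p = 0.0238). The summed ratio was 3.00% (1 against 16 reads, exact 95% interval 0.0715% to 19.3%). For sgPRMT5#1 alone, with 0 reads, MUC4 was at least 5.57-fold lower than in sgNeg, taking 3 reads over the group as the upper limit of a count of 0 and the 16 sgNeg reads as exact. The exact 95% interval of the ratio, which covers the counting error of both groups, reached up to 24.8%.

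MUC4 had a few reads in the WDR77 knockouts, with counts of 1, 3 and 4 in sgWDR77#1 and 1, 2 and 3 in sgWDR77#2. The sgWDR77#1 libraries overlapped those of sgNeg, and the sgWDR77#2 libraries lay below them by a narrow margin, with 0.540 CPM at most against 0.544 CPM at least. The MUC4 log2 fold change was -0.999 ± 0.51 (SE, n = 6 and 3, 95% interval -2.08 to 0.08; limma voom, adjusted p = 0.354), which did not pass the threshold and does not show that MUC4 was unaltered. In this comparison 3 of the 4 mucins passed the count minimum. MUC4 passed it through sgNeg, where its mean count is above 3, while in WDR77KO it had 14 reads over 6 libraries. Between the knockouts the MUC4 mean was lower in PRMT5KO by -0.398 CPM (exact permutation test, 924 arrangements, two-sided p = 0.00216, the smallest it can give), and the lowest WDR77KO library, at 0.185 CPM, lay just above the highest PRMT5KO library, at 0.170 CPM, each holding 1 read. This test too was chosen after the separation of the libraries was seen, so it restates that separation.

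MUC20 was listed at 0 in all 15 libraries. The limit that a count of 0 allows is 3 reads, or 0.458 to 0.578 CPM per library, and no fold is given. The noncoding gene MUC20-OT1, which shares exons with MUC20, had 34 reads over the 15 libraries, from 0 to 9 in each. The part of the shared exons in the MUC20 count was not tested, and a count of 0 does not show that the gene was silent.

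On a scale per exonic length (RPKM, CPM per kilobase of exons), MUC1 in sgNeg reached 8.80 ± 1.53, MUC16 0.153 ± 0.053 and MUC4 0.0431 ± 0.0156 (SD, n = 3). MUC1 was therefore the most abundant member by length, and the higher count of MUC16 over MUC4 held per length as well. With the longest transcript as length in place of all exons, MUC1 was at 11.7, MUC16 at 0.155 and MUC4 at 0.0540, in the same order. For scale, RIOK1, an adaptor of the methylosome, averaged 17.4 RPKM over the 15 libraries.

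**Figure D2:**
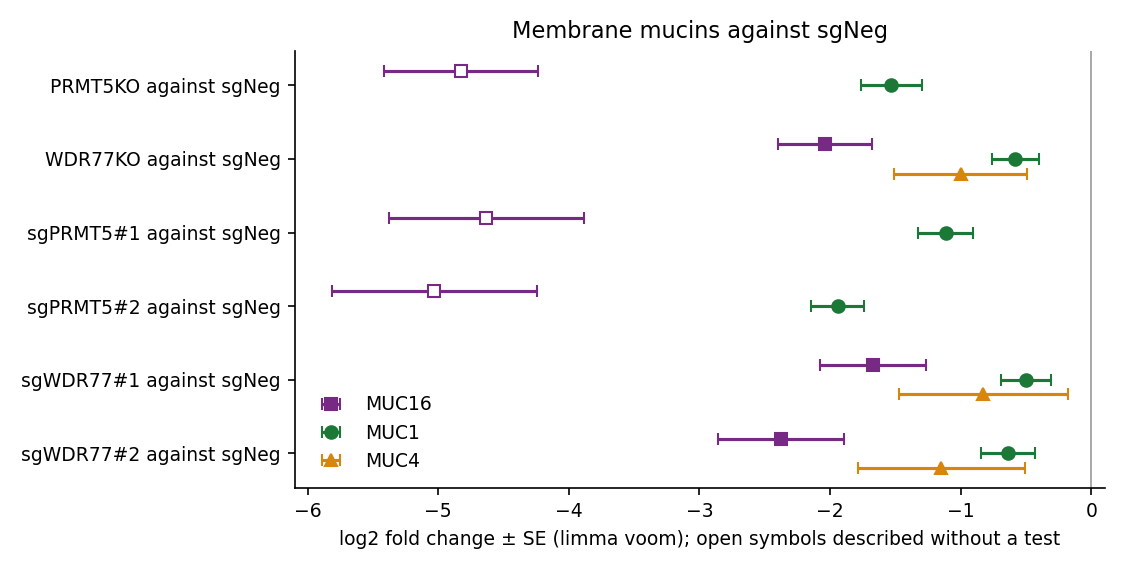
Log2 fold change against sgNeg (horizontal axis) with its SE for MUC16, MUC1 and MUC4 in both pooled knockouts and with each guide; open squares are MUC16 values described without a test. Of the genes drawn, MUC16 lies farthest from 0 in each row, from -5.03 to -1.67. MUC4 appears only where it passed the count minimum, so the PRMT5 rows hold MUC16 and MUC1 alone.

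The 6 genes whose log2 CPM followed MUC16 most closely over the 15 libraries, among 14061 genes that passed the filter, were CD24 (Pearson r = 0.94), KRT13 (0.93), PALM (0.93), EPB41L1 (0.93), GALNT5 (0.92) and TNS4 (0.92). Spearman's rho of the 6 ran from 0.875 to 0.943, and the median r over all genes was -0.01. These values are descriptions, chosen as the highest of many, and they share the same libraries and conditions. With the mean of each condition removed, r ranged from 0.50 for KRT13 to 0.72 for PALM. MUC1 ranked 16 with r = 0.89, and MUC4, which did not pass the filter, had r = 0.90.

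CD24 encodes a small, heavily O-glycosylated surface protein, KRT13 a keratin of wet stratified epithelia, and EPB41L1 a protein that ties the cytoskeleton to the membrane. CD24 counts were 112, 90 and 118 in sgNeg, 23, 15 and 7 in sgPRMT5#1, 14, 12 and 12 in sgPRMT5#2, 51, 38 and 52 in sgWDR77#1, and 36, 49 and 53 in sgWDR77#2. As for MUC16, the PRMT5 knockouts were lowest and the WDR77 knockouts lay between them and sgNeg. The 6 genes were chosen for following MUC16 over these libraries, so a shared order follows from the choice and is a description. KRT13 averaged 43.9 ± 9.47 CPM in sgNeg (SD, n = 3) and 1.48 ± 1.24 and 1.22 ± 0.39 with the PRMT5 guides, with 6.68 ± 2.61 and 9.63 ± 3.03 with the WDR77 guides. EPB41L1 differed least of the 6 between sgNeg and PRMT5KO on the log2 scale, with 63.7 ± 5.08 CPM in sgNeg and 20.6 ± 1.25 in sgPRMT5#2.

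**Figure D3:**
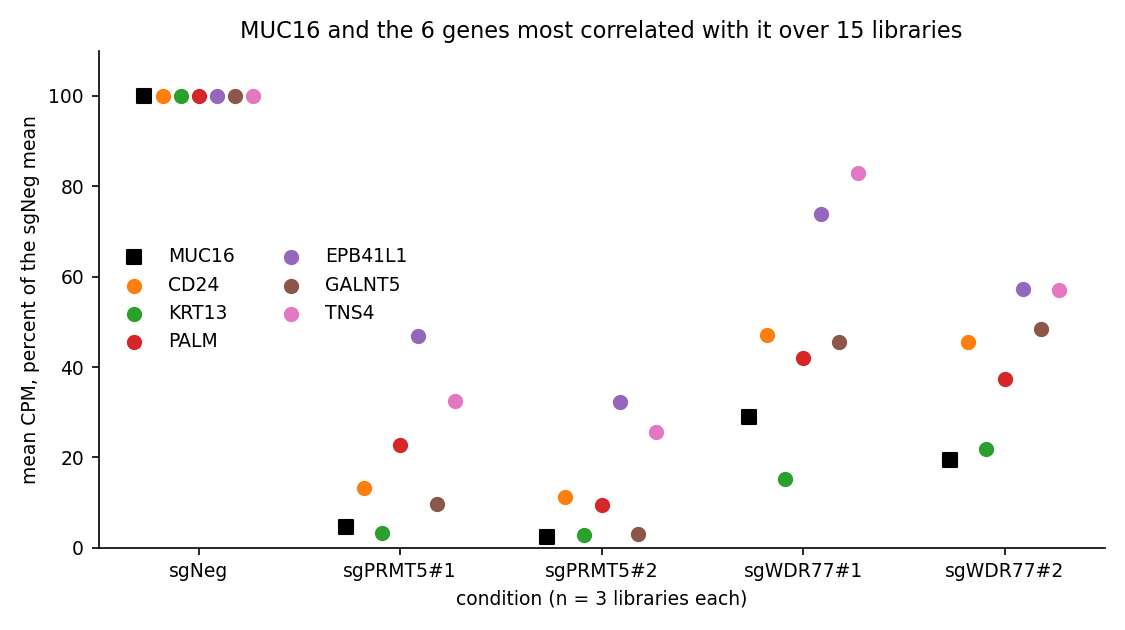
Mean CPM of MUC16 (black squares) and of the 6 genes most correlated with it, as percent of each gene's sgNeg mean (vertical axis, linear from 0), in the 5 conditions with 3 libraries each. All 7 genes are lowest with the PRMT5 guides, where MUC16 and KRT13 lie nearest to 0. The 6 genes were chosen for following MUC16 over these libraries, so the shared order follows from that choice.

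The enzymes that start and extend O-linked sugars on mucins were read next. Of 20 GALNT-type enzymes, which attach the first sugar, 12 were tested in PRMT5KO and limma voom called 4 of them lower and 0 higher (3 higher at an unadjusted p under 0.05), beside 8.30% lower and 8.73% higher over all genes. The median log2 fold change was -0.19, and -0.01 over all genes. GALNT5 was counted 16, 17 and 32 times in sgNeg, 6, 1 and 0 times in sgPRMT5#1, and 0, 1 and 1 times in sgPRMT5#2, and its log2 fold change was -4.04 ± 0.60 (SE, n = 6 and 3; limma voom, adjusted p = 0.00201). It passed the mean count minimum only through sgNeg, so a lower level was the outcome open to it. Its p and its place among the 4 called lower are therefore descriptions. The other 3 were GALNT12 (-0.98 ± 0.17), GALNT6 (-0.53 ± 0.13) and GALNT1 (-0.36 ± 0.11), the last being the most abundant member per length. Without sgNeg replicate 1 or sgNeg replicate 2, 2 of the 12 were called lower. GALNT6 was not called without either of these (limma voom, adjusted p = 0.0803 and 0.0990, over a range of 0.00400 to 0.0990), and GALNT1 was not called without any 1 of the 3 sgNeg libraries, the 3 sgPRMT5#2 libraries or sgPRMT5#1 replicate 3 (adjusted p from 0.0525 to 0.147), nor with upper quartile scaling (0.0502), a replicate block (0.0668) or all 15 libraries in one fit (0.0667). In WDR77KO 1 of 12 was called lower, beside 2.55% of all genes. This was GALNT6, which fell by 2.19 on the log2 scale (SE 0.24; limma voom, adjusted p = 6.93e-05), from 17.8 ± 2.18 CPM in sgNeg to 4.54 ± 0.89 and 3.57 ± 1.56 with the WDR77 guides.

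Of 18 enzymes that extend or cap the sugar chain, 15 were tested in PRMT5KO, and 6 were called lower and 1 higher, beside 8.30% and 8.73% of all genes, with a median log2 fold change of -0.34. Those farthest from 0 were ST6GALNAC1 (-2.86 ± 0.58), GCNT4 (-2.79 ± 0.72), GCNT3 (-2.65 ± 0.45) and ST6GALNAC2 (-2.28 ± 0.39; limma voom, adjusted p = 0.00779, 0.0206, 0.00400 and 0.00410). GCNT enzymes build branches and ST6GALNAC enzymes add sialic acid to the inner sugar. All 4 were low in these cells, at 0.139 to 0.521 RPKM over the 15 libraries, and ST6GALNAC1 had 24 reads in sgNeg and 5 in PRMT5KO in sum, and GCNT4 30 and 10. ST6GALNAC1 and GCNT4 passed the mean count minimum only through sgNeg, as did GALNT5, PIGR and STRA6, so that a lower level was the outcome open to them in PRMT5KO. ST3GAL1, which adds sialic acid to the next sugar and was the most abundant of the list per length, was the 1 called higher (0.38 ± 0.10; limma voom, adjusted p = 0.0246). Without sgNeg replicate 1, and with a mean count of at least 10, the count lower was 3, and GCNT4 was not called without sgNeg replicate 1 or 3 (limma voom, adjusted p = 0.0853 and 0.0610). ST3GAL1 was not called without sgNeg replicate 1, 2 or 3 or sgPRMT5#2 replicate 1 (limma voom, adjusted p = 0.0857, 0.127, 0.0581 and 0.0503). In WDR77KO 0 of 16 tested were called by limma voom in either direction (3 lower and 0 higher at an unadjusted p under 0.05), with a median of -0.14.

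**Figure D4:**
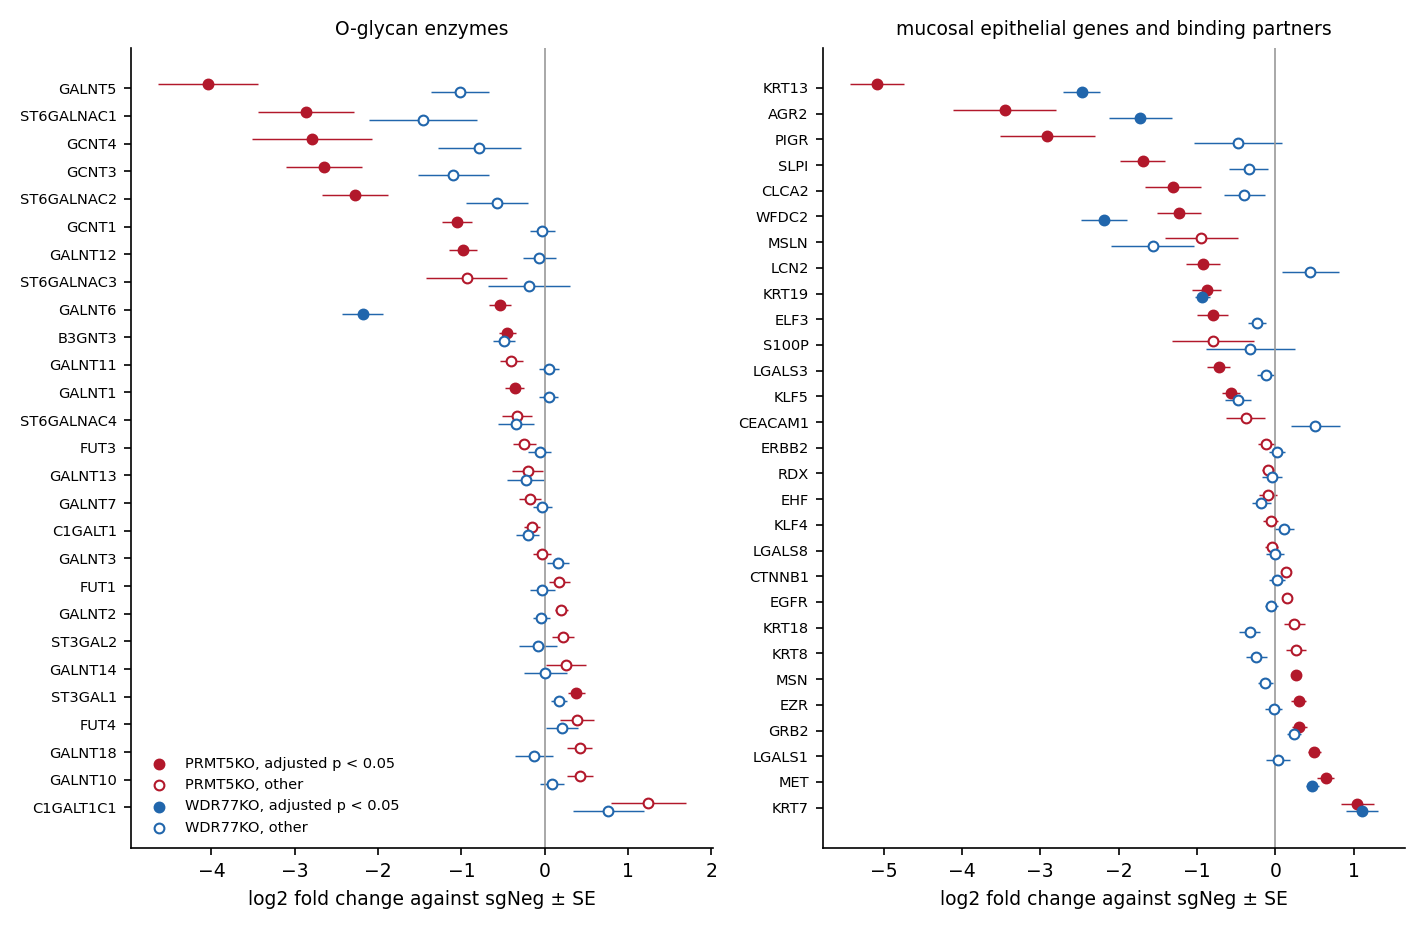
Log2 fold change against sgNeg with SE (horizontal axes) for the tested O-glycan enzymes (left) and for mucosal epithelial genes and mucin binding partners (right), in PRMT5KO (red) and WDR77KO (blue); filled points have an adjusted p under 0.05. GALNT5 and KRT13 lie farthest left in PRMT5KO, at -4.04 and -5.08.

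Further mucins and mucin-like surface proteins differed widely in their reads, from 0 in every library for MUC22 and EMCN to between 2097 and 3043 per library for CD164. Of 13 further membrane mucins and mucin-like surface proteins, 5 were tested in each knockout. CD164, the most abundant per length, was not called in either knockout (log2 fold changes of -0.02 ± 0.08 and 0.06 ± 0.09). Over all genes 8.30% were called lower in PRMT5KO and 2.55% in WDR77KO. In PRMT5KO 0 were called higher (1 at an unadjusted p under 0.05) and 1 lower, PODXL (-0.38 ± 0.12; limma voom, adjusted p = 0.0456), and in WDR77KO 0 higher (0 at an unadjusted p under 0.05) and 1 lower, PDPN (-0.77 ± 0.19; limma voom, adjusted p = 0.0313). The PODXL call was lost without any 1 of the 3 sgNeg libraries, the 3 sgPRMT5#2 libraries or sgPRMT5#1 replicate 3 (limma voom, adjusted p from 0.0699 to 0.137). It was also lost with no filter (0.0698), upper quartile scaling (0.0598), a replicate block (0.0672) and all 15 libraries in one fit (0.0767), and held in 6 of 17 alternatives. The PDPN call was lost without any 1 of the 3 sgNeg libraries, sgWDR77#1 replicate 2 or 3 or sgWDR77#2 replicate 2 (limma voom, adjusted p from 0.0604 to 0.121). It was also lost with no filter (0.0577), a replicate block (0.0629) and all 15 libraries in one fit (0.0540), and held in 8 of 17 alternatives. The list medians were -0.02 and 0.19. Of 8 secreted mucins and relatives, only OVGP1 was tested, and it was called in neither comparison (-0.02 ± 0.45 and -0.38 ± 0.61), while the others had at most 3 reads in any library.

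Proteins known to bind mucins or to act with them formed a further list. All 12 were tested, and in PRMT5KO 5 were called higher and 1 lower, beside 8.73% and 8.30% of all genes, with a median of 0.15. MET, the receptor that MUC20 is known to bind, was higher by 0.64 ± 0.11 on the log2 scale in PRMT5KO and by 0.47 ± 0.09 in WDR77KO (SE, n = 6 and 3; limma voom, adjusted p = 0.00388 and 0.00580), the 1 called higher of 12 in the latter (0.838% of all genes), where 0 were lower (1 at an unadjusted p under 0.05) and the median was -0.01. LGALS1, the galectin with the highest level per length, was higher in PRMT5KO (0.50 ± 0.09; adjusted p = 0.00397 by limma voom) and LGALS3, the galectin known to bind MUC1 and MUC16, was lower (-0.72 ± 0.14; 0.00733). GRB2, an adaptor that binds the MUC1 tail, was higher by 0.31 ± 0.09 (limma voom, adjusted p = 0.0372). The count higher was 2 without sgNeg replicate 2 and 3 without sgNeg replicate 1 or 3, sgPRMT5#1 replicate 3 or any 1 of the sgPRMT5#2 libraries, and 3 with library totals alone or a replicate block. GRB2 was not called under any of these (limma voom, adjusted p from 0.0600 to 0.169). Without sgNeg replicate 1 LGALS3 was no longer called (adjusted p = 0.0512 by limma voom), and without sgNeg replicate 3 MET in WDR77KO was not (0.0553).

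Among 7 proteases that can release mucins from the surface, 5 were tested and 2 were called lower in PRMT5KO, MMP7 (-2.50 ± 0.47; limma voom, adjusted p = 0.00564) and ADAM10 (-0.33 ± 0.11; 0.0446), beside 8.30% of all genes. The median was -0.07. In WDR77KO limma voom called 0 of 5 (2 lower at an unadjusted p under 0.05), with a median of -0.16. MMP14, the most abundant per length, was at -0.07 ± 0.07 and -0.40 ± 0.14. ADAM10 was not called without sgNeg replicate 1 or 2 (limma voom, adjusted p = 0.179 and 0.124), sgPRMT5#1 replicate 3 or any 1 of the sgPRMT5#2 libraries (0.0732 to 0.0873), nor with upper quartile scaling (0.0614) or all 15 libraries in one fit (0.0953).

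Genes typical of mucosal epithelium, where MUC16, MUC1 and MUC4 are usual products, were read as a list of their own. Of 31 genes 17 were tested in PRMT5KO, and 10 were called lower and 1 higher, beside 8.30% and 8.73% of all genes, with a median log2 fold change of -0.80. KRT13 had the largest value (-5.08 ± 0.35; limma voom, adjusted p = 7.87e-06), followed by the secretory chaperone AGR2 (-3.45 ± 0.66; 0.00619) and the immunoglobulin receptor PIGR (-2.91 ± 0.61; 0.00900). PIGR passed the mean count minimum only through sgNeg, so its p is a description. In WDR77KO 18 were tested, and 4 were called lower and 1 higher, beside 2.55% and 0.838% of all genes, with a median of -0.32. KRT13 fell by 2.47 (SE 0.24), WFDC2 by 2.19 (SE 0.29) and AGR2 by 1.72 (SE 0.40) on the log2 scale (limma voom, adjusted p = 1.38e-05, 0.000351 and 0.0251). WFDC2 encodes HE4, like CA125 a serum marker of ovarian cancer, and was lower in PRMT5KO too (-1.23 ± 0.28; limma voom, adjusted p = 0.0130). KRT7, a keratin of simple epithelia named after its values were seen, was the 1 called higher in each knockout (1.05 ± 0.21 and 1.11 ± 0.20; limma voom, adjusted p = 0.00719 and 0.00565). KRT18, the most abundant of the list per length, was called in neither comparison (0.24 ± 0.14 and -0.33 ± 0.13). In PRMT5KO it was called higher in 1 of 17 alternatives, with guides kept apart (limma voom, adjusted p = 0.00437). Without sgNeg replicate 1 the PRMT5KO count lower was 5, with PIGR and WFDC2 not called (limma voom, adjusted p = 0.0505 and 0.0767), and WFDC2 was not called without sgNeg replicate 2 either (0.0575). Without sgNeg replicate 2 KRT7 was not called in either knockout (limma voom, adjusted p = 0.0556 and 0.0538). AGR2 in WDR77KO was not called without sgNeg replicate 1 or 3, sgWDR77#1 replicate 2 or sgWDR77#2 replicate 2 (limma voom, adjusted p = 0.126, 0.130, 0.0587 and 0.0520).

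Retinoid and cytokine signals are known to control mucin genes in other epithelia. Of 15 retinoid genes 12 were tested in PRMT5KO, and 6 were called lower and 2 higher, beside 8.30% and 8.73% of all genes, with a median of -0.33. CRABP2, which carries retinoic acid to its receptors, fell by 2.38 (SE 0.29) and RARRES1 by 1.74 (SE 0.44) on the log2 scale, STRA6 was at -1.71 ± 0.53 and PLAAT4 at -1.08 ± 0.29, and ALDH1A3, the most abundant per length and a maker of retinoic acid, rose by 0.63 (SE 0.08; limma voom, adjusted p = 0.000622, 0.0191, 0.0395, 0.0234 and 0.000678). STRA6 passed the mean count minimum only through sgNeg, so its p is a description. The STRA6 call held in 6 of 15 alternatives (limma voom, adjusted p from 0.0191 to 0.0993). It was lost with no filter (0.0524), a replicate block (0.0652) or all 15 libraries in one fit (0.0993), and without sgNeg replicate 1 or 2, sgPRMT5#1 replicate 3 or any 1 of the sgPRMT5#2 libraries (0.0609 to 0.0850). The PLAAT4 call held in 12 of 17 and was lost without sgNeg replicate 1 or 2 or any 1 of the sgPRMT5#2 libraries (limma voom, adjusted p from 0.0507 to 0.0935), and the RARRES1 call was lost without sgNeg replicate 1 (0.0992). The count lower was 1 without sgNeg replicate 1 and 2 without sgNeg replicate 2 or any 1 of the sgPRMT5#2 libraries, and the count higher was 1 without sgNeg replicate 2 or 3, sgPRMT5#1 replicate 3 or any 1 of the sgPRMT5#2 libraries. In WDR77KO limma voom called 1 of 13 higher, the receptor RARB (0.62 ± 0.16, adjusted p = 0.0451), and 0 lower (4 lower at an unadjusted p under 0.05), beside 0.838% and 2.55% of all genes, with a median of -0.16. CRABP2 there was at -0.98 ± 0.26 (limma voom, adjusted p = 0.0520). It was called lower in 5 of 17 alternatives (adjusted p from 0.0265 to 0.290 by limma voom). The count higher there was 0 with library totals alone, no filter or a replicate block, and without any 1 of the 3 sgNeg libraries, sgWDR77#1 replicate 2 or 3 or sgWDR77#2 replicate 2 or 3. RARB, named after its values were seen, was called in 7 of 17 alternatives (limma voom, adjusted p from 0.0335 to 0.216).

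All 8 cytokine-responsive transcription factors were tested. Over all genes 8.30% were called lower and 8.73% higher in PRMT5KO, and 2.55% lower in WDR77KO. In PRMT5KO 3 were called lower, STAT5A (-1.10 ± 0.28), IRF1 (-0.56 ± 0.16) and STAT5B (-0.51 ± 0.12), and 2 higher, one of them NFKB1 (0.46 ± 0.10; limma voom, adjusted p = 0.0188, 0.0313, 0.0126 and 0.00991), with a median of -0.17. HIF1A, the most abundant per length, was at -0.02 ± 0.08. Without sgNeg replicate 1 limma voom called 0 lower, and the count higher was 1 without sgNeg replicate 1 or 3 and 0 without sgNeg replicate 2. IRF1 was not called without any 1 of the 3 sgNeg or 3 sgPRMT5#2 libraries (limma voom, adjusted p from 0.0592 to 0.103), nor with a replicate block (0.0549). NFKB1 was not called without sgNeg replicate 1 or 2 (limma voom, adjusted p = 0.0605 and 0.0625). In WDR77KO limma voom called 0 of 8 lower (1 at an unadjusted p under 0.05), with a median of -0.06. In the methylosome list of 5 genes, 1 was called higher in PRMT5KO, the adaptor RIOK1 (0.46 ± 0.13; limma voom, adjusted p = 0.0284), and 1 lower, PRMT5 itself, with a median of 0.11, and in WDR77KO WDR77 was the 1 called and the median was 0.09. RIOK1 was not called without any 1 of the 3 sgNeg libraries or the 3 sgPRMT5#2 libraries (limma voom, adjusted p from 0.0556 to 0.116), nor with all 15 libraries in one fit (0.0578).

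Protein-coding genes within 250 kb of the mucins were counted as the regions around the members. Around MUC16, 14 such genes are annotated, many of them olfactory receptors, and 2 were tested in PRMT5KO. ZNF558, a zinc finger gene 16530 bases away, was at -0.42 ± 0.14 (limma voom, adjusted p = 0.0499), and ZNF317 was not called. Around MUC1, 24 of 31 neighbours were tested in PRMT5KO, of which 2 were called lower (EFNA3, -1.15 ± 0.30, and EFNA1, -0.49 ± 0.16) and 1 higher (RUSC1, 0.43 ± 0.11; limma voom, adjusted p = 0.0218, 0.0494 and 0.0231). Over all genes of this comparison 8.30% were called lower and 8.73% higher, so these counts were near the background. Around MUC4, 3 of 6 neighbours were tested in PRMT5KO and 1, the kinase gene TNK2, was called lower (-0.35 ± 0.10; limma voom, adjusted p = 0.0293), and TNK2 is also a neighbour of MUC20. All 5 calls were lost without sgNeg replicate 1 and without sgNeg replicate 2 (limma voom, adjusted p from 0.0624 to 0.235), and 4 of them, all but EFNA3, also without other single libraries. Those of ZNF558, EFNA1 and TNK2 were further lost with a replicate block (0.0670, 0.0767 and 0.05001) and with all 15 libraries in one fit (0.111, 0.134 and 0.0821), those of ZNF558 and TNK2 with no filter (0.137 and 0.0894), and those of ZNF558 and EFNA1 with upper quartile scaling (0.0672 and 0.0557). In WDR77KO limma voom called 0 of 2, 0 of 25, 0 of 4 and 0 of 4 neighbours of MUC16, MUC1, MUC4 and MUC20 (0, 1, 0 and 0 at an unadjusted p under 0.05).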

How the data were processed

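Bulk RNA was sequenced from 15 libraries of HSC-5 cells. The deposited values are whole-number counts of reads per gene (unit: count), which the authors made by aligning to hg38 with STAR and counting in HTSeq, and compared with DESeq2. The strand setting and annotation release were not given in the sources used here, and the labels and the study's methods name different TruSeq kits. Of all reads listed, 2.75% to 7.16% lay outside genes, 7.09% to 7.93% were ambiguous and 9.49% to 13.1% mapped to several places, and these were kept out of library sizes.

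Counts were scaled by trimmed means of log ratios (trims 0.3 and 0.05), written as own code and tested on simulated data. Genes with a mean normalized count of at least 3 in the libraries compared were fitted with limma voom (limma 3.58.1, R 4.3.3), with Benjamini-Hochberg adjustment over all genes tested and a threshold of 0.05. Both guides of a gene were pooled, and only the libraries compared entered a fit. Correlations used log2 CPM with a prior count of 2. Tables and tests on single values used Python 3.11.15, pandas 2.3.3, numpy 2.4.6 and scipy 1.17.1, and figures matplotlib 3.10.9. Lengths came from GENCODE 44, in which 60463 of 60605 identifiers were found, and promoters from RefSeq for 3 of the 4 members. Intervals for summed reads are exact (Clopper-Pearson) and cover counting error only.

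The genes named were the 4 mucins, both guide targets, the 6 genes most correlated with MUC16, up to 4 called genes and the most abundant gene of each list, and called neighbours within 250 kb. Members and lists were chosen with earlier results of these data known. The exact permutation test of MUC4, and the alternatives for called marker genes, KRT7 and RARB, were added after their values were seen. Alternatives covered scaling, filter, replicate block, libraries in the fit, guides kept apart, each library left out, and gene length. One result of the list of cytokine genes in WDR77KO is not reported here.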

Additional observations from a re-analysis of the deposited data

Results flagged for a closer look

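Among 22 combinations of gene and pooled knockout, 2 had a library far from the others by the measure used, and chance alone gives about 1 in 20. For MUC4 this was 1 read, in sgPRMT5#2 replicate 2 (0.170 CPM), beside 5 libraries at 0. Any read beside tied zeros meets that measure, and a count of 0 allows up to 3 reads, so this library is not shown to differ. GALNT5 stood at 0.917 CPM in sgPRMT5#1 replicate 1, and the other 5 PRMT5KO libraries were at 0 to 0.170 CPM. This library also had the most MUC16 (5 reads) and MUC1 (14.2 CPM) of the PRMT5KO libraries.

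Differences between groups were also seen. MUC1 was lower in PRMT5KO than in WDR77KO by -0.94 on the log2 scale (limma voom, adjusted p = 0.0112). The mean MUC4 level differed by -0.398 CPM between them, in a test chosen after the libraries were seen to separate, where the nearest libraries of the 2 knockouts held 1 read each. MUC1 was lower with sgPRMT5#2 than with sgPRMT5#1 by -0.83 on the log2 scale (limma voom, adjusted p = 0.0230), a difference that was lost without sgPRMT5#1 replicate 1 (adjusted p = 0.156 by limma voom).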

How the results depend on the processing

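The deposited counts were read under other scalings (RLE, upper quartile, library totals), no filter or a minimum mean of 10, a replicate block, all 15 libraries in one fit, guides kept apart and each library left out. edgeR and DESeq2 were not run. Lower MUC1 in PRMT5KO held in 17 of 17 alternatives and lower MUC16 in WDR77KO in 17 of 17, the latter against the same sgNeg libraries that chose MUC16 and so no independent sign of stability. The MUC1 difference between the WDR77 guides, not called, turned to 0.04 without sgWDR77#1 replicate 3 and 0.12 without sgWDR77#2 replicate 1, over a leave-one-out range of -0.28 to 0.12.

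Genes called, both directions together, moved by more than 1.5 times under the settings below, and the cause was not tested. With guides kept apart, PRMT5KO against sgNeg gave 4347 in place of 2397 and PRMT5KO against WDR77KO 3641 in place of 1962. With no filter, sgPRMT5#1 gave 987 in place of 530 and the WDR77 guides against each other 127 in place of 17, which became 11 with library totals. With all 15 libraries in one fit, sgWDR77#1 gave 1333 in place of 385, the PRMT5 guides against each other 1059 in place of 2690 and the WDR77 guides 339. Leaving out single libraries gave 483 to 3562 for PRMT5KO, 199 to 677 for WDR77KO (477 with all), 876 to 3178 for PRMT5KO against WDR77KO, 211 to 510 for sgPRMT5#1, 56 to 1003 for sgWDR77#1, 293 to 661 for sgWDR77#2 (698 with all), 1429 to 4711 between the PRMT5 guides and 0 to 156 between the WDR77 guides by limma voom.

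Replicate numbers were not treated as pairs. Same-numbered libraries of different conditions correlated above 0.1 in 2 of 30 pairs (r from -0.21 to 0.18), and 5 of 15 libraries correlated best with their own number. With replicate number as a block, genes called were 1834 for PRMT5KO, 324 for WDR77KO, 1541 for PRMT5KO against WDR77KO, 1529 for sgPRMT5#1 (530 without a block, a move of more than 1.5 times), 5757 for sgPRMT5#2, 433 for sgWDR77#1, 380 for sgWDR77#2 (698 without a block, also more than 1.5 times), 3016 between the PRMT5 guides and 19 between the WDR77 guides. Of 49 called genes recomputed singly in PRMT5KO, 22 were called under every alternative, and of 16 in WDR77KO 8 were. Of 8 genes not called in PRMT5KO, 2 were called under some alternative (KRT18 and PDPN). Of 41 not called in WDR77KO, 3 were (ALDH1A3, CRABP2 and MMP14). Counts of a few reads limit MUC4 and the level of MUC16 in PRMT5KO.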
